A study of Homo sapiens with 8 samples.

Results

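The baseline pattern of ribosome footprints in 293T cells was described from the 4 control libraries of a series of 8: 2 libraries labelled as a control for shRNA and 2 labelled as the negative control for miRNA inhibitors. No contrast chose them, and the other 4 libraries, 2 with a non-cleaving shRNA named shNBD1 and 2 with miRNA inhibitors, serve here only as a range to set beside the control values. 293T cells descend from human embryonic kidney and make the large T antigen of SV40. All 8 libraries came from cells kept in high-glucose DMEM with 10% FBS, and cycloheximide in the lysis buffer kept cytosolic ribosomes in place on their messages. Counts were summed to 17179 gene symbols. After the rows of ZNF354B, ST8SIA1 and 12 MTRNR2L genes were set aside, 16777 symbols had a count in at least 1 control library. Each count was divided by the library's remaining total, and values below are in CPM, the usual unit for counts scaled to library size, or in percent of footprints, as mean ± SD over the 4 control libraries unless stated.

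Ribosome profiling sequences the short mRNA stretches that ribosomes shield from nuclease, so the share of footprints on a gene reports the share of translating ribosomes found on its message. A proliferating cell spends much of this capacity on the parts of its own protein-making machinery and on the abundant proteins of metabolism, chromatin and the cytoskeleton. A message with a long coding region holds more ribosomes than a short one at the same rate of protein production. Coding lengths were not used here except for the mitochondrial genes, so CPM values give where the ribosomes are, and the levels of different nuclear genes are not set against each other as protein output.

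After the set-aside rows were taken out, the control libraries held 13792879 and 11207707 counts in the shRNA control and 17024613 and 17572927 in the inhibitor control. The set-aside rows had taken 6.85% and 7.07% of all counts in the shRNA control and 10.6% and 11.5% in the inhibitor control. The shRNA control libraries differed from each other little beyond counting noise, with a chi-square of 1.36 per degree of freedom over genes, against 11.4 for the inhibitor control pair. The first principal component of the control libraries held 78.6% of the variance and separated the control kinds, and the second held 17.2% and separated the inhibitor control replicates. Nothing in the labels says that replicates came from separate cultures, so SDs and p-values cover only how far these libraries differ, which can be technical. The kind of control and the 2 library pairs cannot be told apart, since each kind was made in 1 pair.

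Footprints were spread over many messages, with a steep head. The 29 rows of highest mean CPM held 10% of the footprints, 687 held 50% and 5092 held 90%. In single control libraries, between 670 and 716 rows reached 50%. A mean of at least 1 CPM was seen for 12472 symbols, at least 100 CPM for 2051 and at least 1000 CPM for 119. The 100 highest rows together held 20.8%, and each control library shared between 93 and 96 of its own 100 highest rows with the list from the mean. The treated libraries shared between 88 and 95. Of the 100, 22 coded for cytosolic ribosomal proteins, 10 for replication-dependent histones, 8 for cytosolic chaperones and 6 for splicing or hnRNP proteins, while 14 lay outside the 35 classes described below. Those 14, named here after their values were seen, included the brain-type creatine kinase CKB, the corepressor TRIM28, PARP1 and both Ku subunits. Symbols that RefSeq lists as protein-coding held 96.7% ± 0.0582 of the footprints, those listed as lncRNA 0.338% ± 0.0357, and 760 symbols without a match in that table held 2.94% ± 0.0228.

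The first row was the NBD1 reporter, a row that the files name as a reporter and the labels do not describe. It measured 9967 and 9900.2 CPM in the shRNA control and 9582 and 8867 in the inhibitor control, so 0.958% of the footprints lay on it. The 4 values sat within a narrow band, and the treated libraries ranged from 7603 to 9174. EEF1A1, the elongation factor that brings aminoacyl-tRNA to the ribosome (RefSeq on GRCh38.p14, chr6:73515750-73521032), came next with 8597 and 8349 CPM in the shRNA control and 6960.0 and 7075 in the inhibitor control. Both shRNA control libraries lay above both inhibitor control libraries. GAPDH, a glycolytic dehydrogenase (chr12:6534517-6538371), measured 5271, 5335, 5494 and 5366 CPM in the same order, the tightest of the first 4 rows. EEF2, the translocase of elongation (chr19:3976056-3985463), measured 5217, 5146, 4048 and 4979 CPM, with inhibitor control replicate 1 apart from the other 3.

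The next rows of the list were EIF4A1, the helicase that unwinds messages for initiation (4127 ± 171 CPM), the glycolytic enzymes ENO1 (3860 ± 439) and PKM (3833 ± 252), and VIM, an intermediate filament protein (3819 ± 206). They were followed by both cytosolic HSP90 chaperones, the linker histones H1-2 and H1-4, the tubulins TUBB and TUBA1B, the ribosomal proteins RPS4X, RPL19 and RACK1, the histone variant H3-3A and the actin crosslinker FLNA. Together the 20 rows held 8.06% of the footprints. FLNA had the largest SD relative to its mean of the 20, with 2117 and 2140.0 CPM in the shRNA control and 2318 and 3404 in the inhibitor control, so that inhibitor control replicate 2 stood alone. Row 18, AC093512.2, is named by a clone-based identifier that had no match in the RefSeq table, and it measured 2499 ± 69.0 CPM. ZNF436-AS1, listed as a lncRNA, ranked 59th with 1558 CPM. Without strand or position in the counts, reads of a row that overlaps another gene cannot be told apart from reads of that gene.

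**Figure D1:**
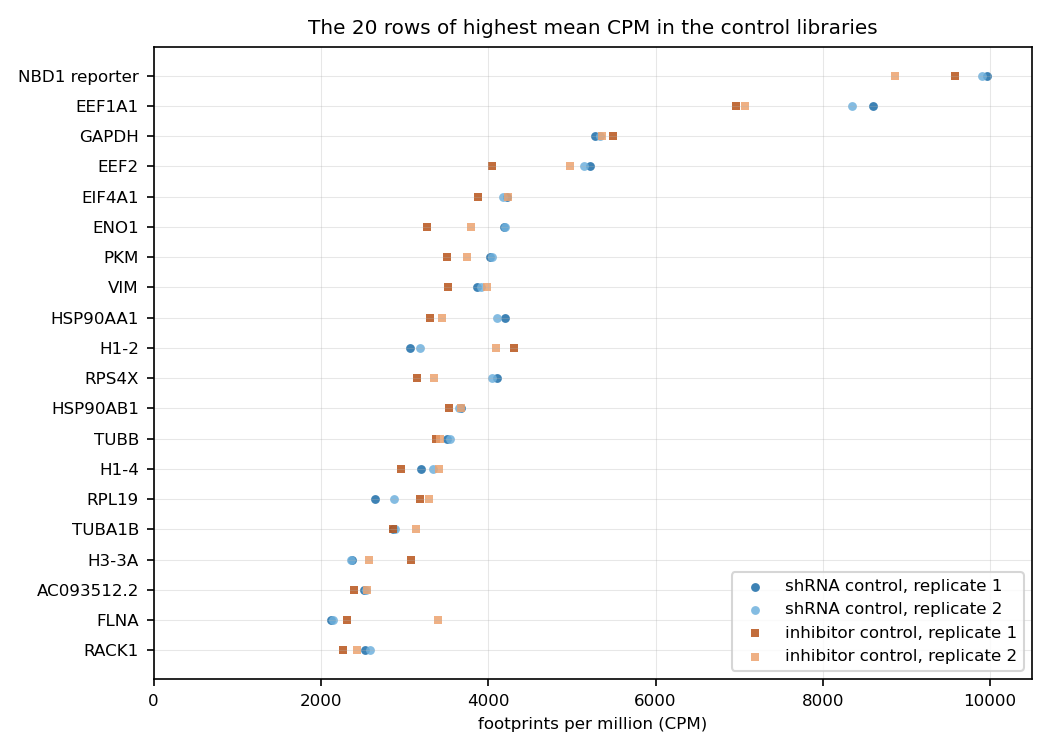
CPM (horizontal axis, linear from 0) of the 20 rows of highest mean CPM, 1 point per control library, blue circles for the shRNA control and orange squares for the inhibitor control. The NBD1 reporter lies between 8867 and 9967 CPM and EEF1A1 between 6960.0 and 8597, and inhibitor control replicate 2 of FLNA lies apart at 3404.

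To see how the footprints were shared among cell functions, 2464 symbols were placed in 35 classes, and these held 50.3% ± 0.557 of all footprints. The 5 largest classes held 21.0%, and 18 classes held over 1% each. Cytosolic ribosomal proteins led with 7.26% ± 0.347. Proteins of the spliceosome and hnRNPs, which package and splice nuclear RNA, held 4.02% ± 0.0815, and replication-dependent histones 3.52% ± 0.158. Translation factors held 3.26% ± 0.155 and cytosolic chaperones with the chaperonin 2.995% ± 0.152. The remaining large classes were glycolysis and the pentose phosphate pathway with 2.14% ± 0.0374 and actin, myosin and actin-binding proteins with 1.88% ± 0.158. The median class had an SD of 3.57% of its mean.

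**Figure D2:**
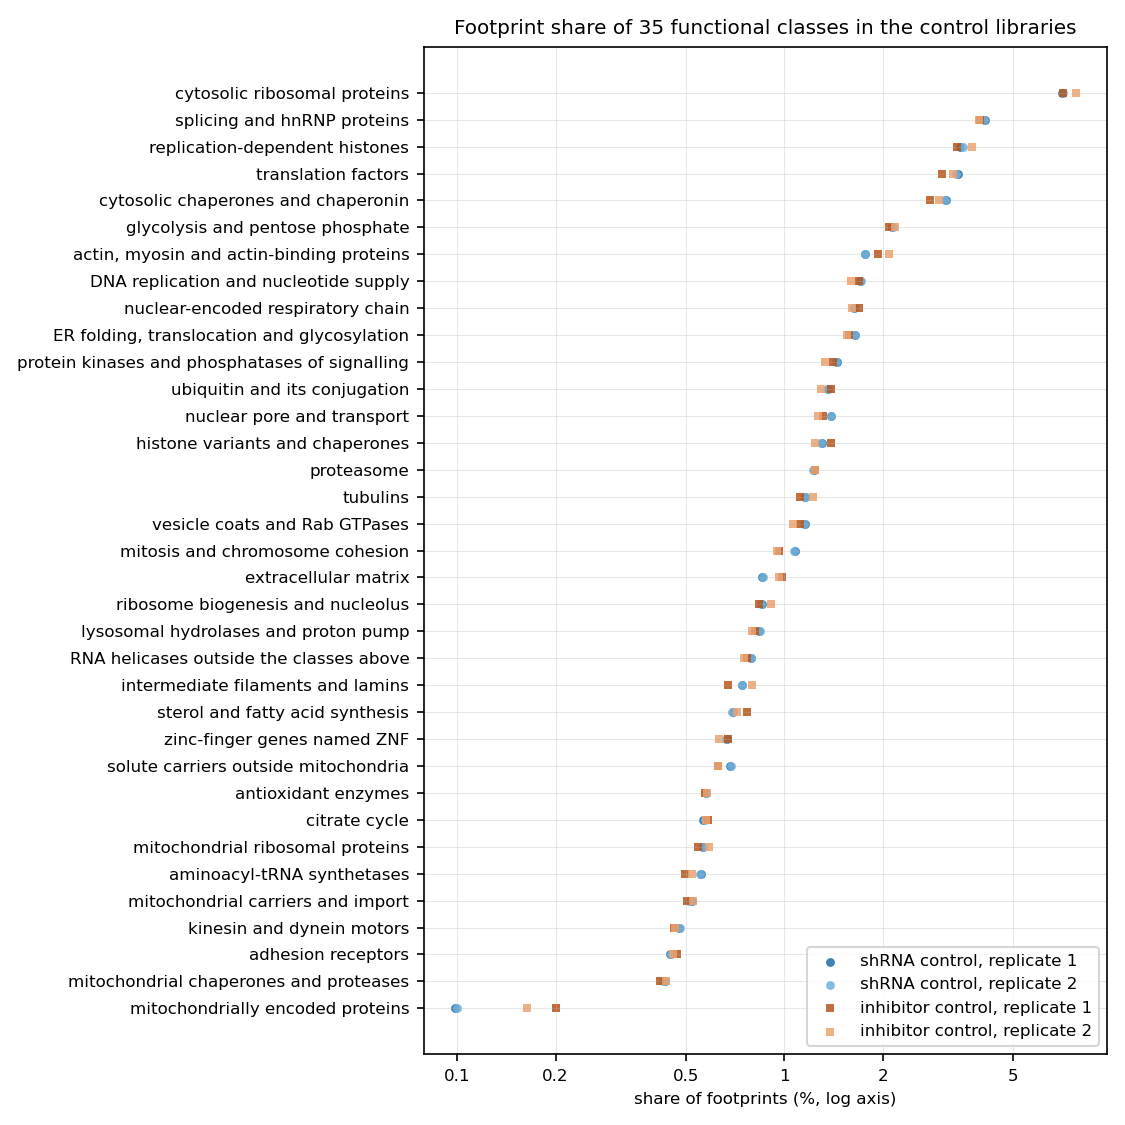
Share of all footprints (percent, log axis) for 35 functional classes, 1 point per control library, ordered by the mean. The points of most classes nearly coincide, and the mitochondrially encoded proteins, between 0.0985% and 0.201%, are the exception at the bottom.

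Some classes were nearly constant. Proteasome genes, which code for the particle that degrades ubiquitin-tagged proteins, held 1.23%, 1.23%, 1.24% and 1.24% in the 4 control libraries, and antioxidant enzymes 0.577%, 0.577%, 0.571% and 0.578%. Glycolysis held 2.14%, 2.15%, 2.09% and 2.18%. The 2 kinds of control did not overlap in 21 of the 35 classes, 14 higher in the shRNA control and 7 higher in the inhibitor control. By the same criterion, 66.6% of single genes did not overlap. Leaving out the mitochondrially encoded class, the ratio of the shRNA control mean to the inhibitor control mean ran only from 0.874 for the actin class to 1.12 for mitosis and chromosome cohesion. With the treated libraries in place of the controls, the share of 21 of the 35 classes moved by more than the SD over the controls. Ribosomal proteins lay between 7.62% and 8.71% there, against 7.05% to 7.78% in the controls, and intermediate filaments were at 1.08% and 1.13% with the hairpin, against 0.671% to 0.794%.

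Classes differed in how many genes carried them. In translation factors 3 genes, EEF1A1, EEF2 and EIF4A1, held 51.4% of the class's footprints. In glycolysis GAPDH, ENO1 and PKM held 61.0%, in tubulins TUBB, TUBA1B and TUBA1C 68.9%, and in the intermediate filaments VIM, KRT8 and KRT18 76.7%. The ribosomal proteins were flat by comparison, with 12.6% on RPS4X, RPL19 and RACK1. The splicing class was similar, with 14.1% on PRPF8, HNRNPA2B1 and HNRNPU. Mitochondrial ribosomal proteins, 78 genes with a row, held 12.1% of their 0.566% ± 0.0172 on the first 3.

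The apparatus of protein synthesis was the largest block. The 80 measured ribosomal protein symbols all passed 10 counts in every control library, with a median of 712 CPM, and 4 others of the list were not analysed here. Proteins of the large subunit held 4.24% ± 0.274 of the footprints and those of the small subunit 3.01% ± 0.134. Within the large subunit the members ran from RPL22L1, a paralog of RPL22, at 7.76 CPM to RPL19 at 2997 CPM, and within the small subunit from RPS27L at 106 CPM to RPS4X at 3662 CPM. RPS4X measured 4106 and 4046 CPM in the shRNA control and 3146 and 3349 in the inhibitor control, with no overlap. It was 0.38 ± 0.09 (SE) higher on the log2 scale in the shRNA control (adjusted p = 0.00904, edgeR's quasi-likelihood test with Benjamini-Hochberg adjustment), a call lost without shRNA control replicate 1 (adjusted p = 0.0769) or 2 (0.0638). RPL4 and RPL5, both of the large subunit, were the steadiest relative to it, at 4.37% ± 0.0462 and 3.16% ± 0.0329 of its footprints.

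Messages of ribosomal proteins and elongation factors are known for starting with a C and a run of pyrimidines, the 5′ terminal oligopyrimidine tract through which growth signals regulate their translation. The windows below, from RefSeq on GRCh38.p14, are given for the 3 translation factors and 4 ribosomal proteins of highest CPM with a promoter entry. Each covers 10 bases before the annotated start and 15 from it, 5′ to 3′ on the gene's strand, and capitals mark the unbroken run of C and T that begins with a C at the annotated first base.
EEF1A1: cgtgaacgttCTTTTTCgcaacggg
EEF2: cgtcagcgttCTCTTCCgccgtcgt
EIF4A1: ggcactccgcCCTagtttctaagga
RPS4X: ctccagccccaatttctacgcgcac
RPL19: tctccccttcgcagataatgggagg
RACK1: gcttttctctCTCTCTTTCactgca
RPL7A: attccctttcCTTTCTCTCTCCTCC
They lie at chr6:73521018-73521042 (minus strand), chr19:3985449-3985473 (minus), chr17:7572815-7572839 (plus), chrX:72277234-72277258 (minus), chr17:39200273-39200297 (plus), chr5:181243892-181243916 (minus) and chr9:133348208-133348232 (plus).

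EEF1A1, EEF2, RACK1 and RPL7A carry the run at the annotated start, while the entries of RPS4X and RPL19 begin with other bases and that of EIF4A1 has a run of only 3. A start of C followed by 4 bases that are each C or T, on the gene's strand only, was found in 43 of the 64 ribosomal protein promoters in the table (67.2%) and in 12 of 58 for translation factors (20.7%), against 1104 of all 27305 promoters (4.04%). Genes with this start held 9.61% ± 0.157 of the footprints over 637 symbols, and 6.18% ± 0.119 without the ribosomal proteins. Their median was 27.9 CPM, against 15.1 CPM for all 13069 symbols with a promoter entry. An annotated start can differ by a few bases from the one used in these cells, so a gene without the run is not shown to lack the tract.

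Chromatin proteins formed the third block. The replication-dependent histones, made in S phase to wrap new DNA, held 3.44%, 3.52%, 3.37% and 3.73% of footprints in the 4 controls. By family, H1 linker histones measured 7308 ± 718 CPM, H2A 8732 ± 715, H2B 8058 ± 323, H3 4398 ± 474 and H4 6655 ± 264. Copies of 1 family are nearly identical in sequence, and the sources used here do not say how a read with several matches was assigned, so single histone rows are uncertain and the family sums are the safer values. The linker histones are more distinct: H1-2 measured 3070 and 3188 CPM in the shRNA control and 4312 and 4091 in the inhibitor control, and H1-4 measured 3198, 3339, 2953 and 3410.2. H1-2 did not overlap between the kinds and was 0.37 ± 0.07 (SE) lower on the log2 scale in the shRNA control (edgeR adjusted p = 0.00484, but 0.0741 without shRNA control replicate 1), while H1-4 overlapped.

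Histone promoters are shown because their class stood apart in the motif counts. The windows below are the bases from 40 to 13 before the annotated start of the 4 histone genes of highest CPM with an entry, on the gene's strand, with capitals marking TATAAA.
H1-2: gcgctctatatatacagcggccctgccc
H1-4: gctccgccctaTATAAAcgggcgggcgc
H2BC12: atgagaggtcctaTATAAAaacgactcc
H2BC21: ataaggtggtTATAAAagaatcaggccc
They lie at chr6:26056483-26056510 (minus strand), chr6:26156289-26156316 (plus), chr6:27146871-27146898 (minus) and chr1:149886695-149886722 (minus). TATAAA beginning between 40 and 20 bases before the start, on the gene's strand, was found in 25 of 38 histone promoters (65.8%), against 2.55% of all promoters in the table. CCAAT on either strand, within the 250 bases before the start, was found in 34 of 38 (89.5%), against 33.0% of all. The same CCAAT count was 69.4% for mitosis and chromosome cohesion. CCGGAAG on either strand stood in 31.4% of the promoters of ZNF genes, 33.3% of those of mitochondrial ribosomal proteins and 38.9% of those of aminoacyl-tRNA synthetases, against 8.82% of all promoters and 16.04% of those of genes with at least 1 CPM.

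Chaperones, which fold new proteins, were led by HSP90AA1 with 4200.4, 4103, 3306 and 3449.7 CPM and HSP90AB1 with 3681, 3647, 3529 and 3674 CPM. HSP90AA1, the more stress-responsive of the pair, was higher in both shRNA control libraries (log2 difference 0.35 ± 0.06 SE, edgeR adjusted p = 0.0028), while HSP90AB1 differed by 0.08. HSPA1B, a heat-inducible HSP70 that is nearly identical to HSPA1A and so uncertain as a single row, measured 3189.7 and 3238 CPM in the shRNA control against 1469.5 and 1913 in the inhibitor control. The 2 kinds lay far apart, with a log2 difference of 0.98 ± 0.13 SE (edgeR adjusted p = 0.000512).

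Footprints of the cytoskeleton lay on tubulins (1.16% ± 0.0461), on the actin class and on intermediate filaments (0.737% ± 0.0506). The genes of the cytoplasmic actins, ACTB and ACTG1, were not analysed here. Among rows of their relatives POTEE, an ankyrin-repeat protein with an actin-like end, measured 2281 ± 316 CPM, POTEI 1599 ± 323 and POTEJ 1547 ± 306. The muscle actins ACTA1, ACTC1, ACTG2 and ACTA2 measured 839.7 ± 105, 643 ± 126, 600.3 ± 174 and 459 ± 148 CPM. Together the 9 actin-like rows held 8065 ± 646 CPM. Actin coding sequences are nearly the same across the family, so a row of this group cannot be read as that gene's own translation.

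Mitochondrial proteins were made in both compartments. Nuclear-encoded subunits of the respiratory chain held 1.64% ± 0.0322, led by ATP5F1B, the catalytic beta subunit of ATP synthase, at 1697 ± 188 CPM. The 13 proteins encoded in mitochondrial DNA, which mitochondrial ribosomes make, held 0.141% ± 0.0503. This was the most uneven class, with 0.0985% and 0.1002% in the shRNA control and 0.201% and 0.164% in the inhibitor control, a ratio of 0.545 between the means. These genes have no introns, so their RefSeq length gives their codons and their footprint levels can be compared per length. How well mitochondrial ribosomes were held on their messages during lysis was not tested, so these densities describe recovered footprints. MT-CO1, the catalytic subunit of cytochrome oxidase, had the highest density at 64.8 ± 8.21 CPM per 100 codons, and MT-ND1, of complex I, the lowest at 7.81 ± 1.96.

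MT-CYB, the cytochrome b of complex III, had 29.4 and 29.2 CPM per 100 codons in the shRNA control and 110.5 and 77.0 in the inhibitor control. MT-ND5, a proton-pumping subunit of complex I, had 32.7, 36.3, 79.0 and 66.7. In both genes the groups lay far apart. The order of the 13 densities differed between the kinds of control: MT-CO1 was first in the shRNA control with 58.2 and 59.2, while in the inhibitor control it had 76.1 and 65.7 and was exceeded by MT-CYB, MT-ATP8 and MT-ND5. The 2 partners of complex V differed, with 60.6 ± 39.7 for MT-ATP8 and 19.2 ± 6.94 for MT-ATP6, though their coding regions overlap, as do those of MT-ND4L and MT-ND4, and a read in the overlap cannot be placed. The subunits of complex I other than MT-ND5 lay between 7.81 and 22.2. Over the 13 genes the log2 density had an SD of 1.10.

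**Figure D3:**
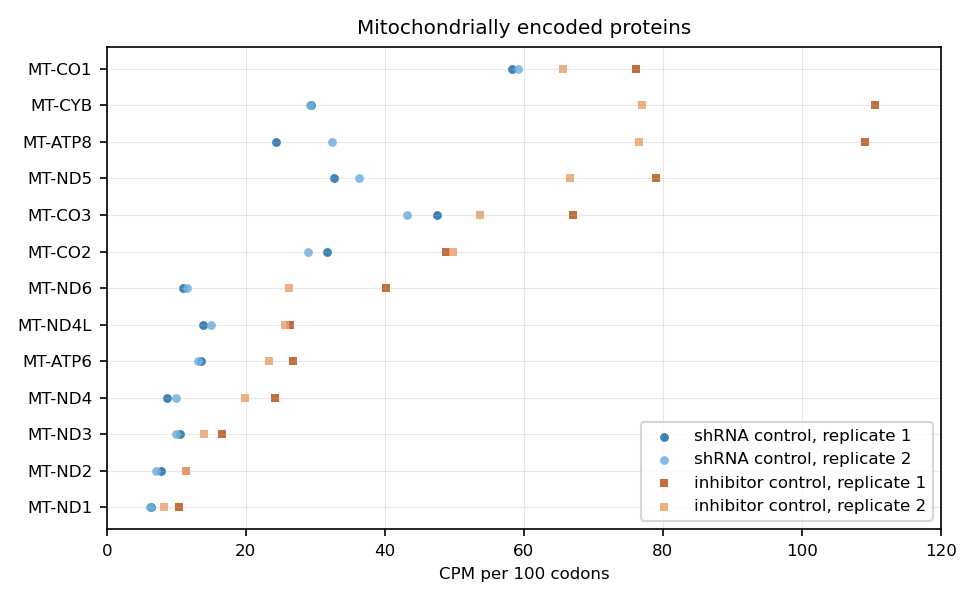
Footprint density in CPM per 100 codons (horizontal axis, linear from 0) of the 13 mitochondrially encoded genes, 1 point per control library, ordered by the mean. The shRNA control circles lie close together, and the inhibitor control squares lie to their right in every gene, most in MT-CYB and MT-ATP8.

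Marker genes of 16 lineages were then examined to see what identity the footprints of 293T cells show. A gene was called detected with at least 10 counts in every control library, which is between 0.569 and 0.892 CPM. Of 159 listed markers with a row, 79 were detected (49.7%), against 71.2% of all symbols with a row. A low number of counts on a gene does not show that it makes protein, and in bulk libraries more cells with a message and more message per cell cannot be told apart.

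Most regulators of kidney development were detected and the listed products of the adult nephron were not. Of 9 developmental markers, 8 were detected (88.9%). GATA3, a factor of the nephric duct, measured 40.02 and 41.0 CPM in the shRNA control and 24.8 and 27.4 in the inhibitor control, so it did not overlap and was higher in the former (log2 difference 0.68 ± 0.10 SE, edgeR adjusted p = 0.00112). SALL1, a factor of the metanephric mesenchyme, measured 30.1 ± 2.51 CPM, SIX2, which marks nephron progenitors, 14.4 ± 3.06, and EYA1, its partner, 8.94 ± 2.31. WT1 stood at 6.85 ± 0.969 and PAX2 at 3.29 ± 0.581, while PAX8 stayed at 0.186 CPM and was not detected. None of 7 adult nephron markers was detected, and their summed level was between 1.16 and 1.47 CPM. None of 9 adrenal cortex markers was detected either, with a sum between 1.52 and 2.50 CPM.

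Of 20 neuronal markers with a row, 15 were detected (75.0%, near the 71.2% of all symbols), led by the ubiquitin hydrolase UCHL1 with 953 and 958 CPM in the shRNA control and 673 and 760.3 in the inhibitor control. DPYSL3, an axon guidance protein, measured 168 ± 19.7 CPM, the stathmin STMN3 65.4 ± 9.66, the neuronal tubulin TUBB3 55.6 ± 7.64 and the neurofilament protein INA 50.6 ± 2.64. The synaptic markers were low, with SNAP25 at 2.05 and SYN1 at 1.01 CPM, and STMN2 had no count in any control library, where 3 counts would be 0.171 to 0.268 CPM. In the neural crest and chromaffin list 6 of 12 were detected, with GATA2 highest at 16.2 ± 1.40 CPM. Its defining enzymes were at or near 0: TH had 1 count in 1 library and DBH none. Of 8 glial markers 5 were detected, with the glutamate transporter SLC1A3 at 27.6 ± 1.998 CPM.

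Epithelial and mesenchymal markers were detected about as often as all symbols, 76.9% and 71.4% against 71.2%. Of 13 epithelial markers 10 were detected, with the simple-epithelium keratins KRT8 at 1300.1 ± 168, KRT18 at 533 ± 91.4 and KRT19 at 444 ± 61.6 CPM, and EPCAM at 128 ± 27.6. Of 14 mesenchymal markers 10 were detected, with VIM at 3819, the matrix protein FN1 at 1541 ± 407 and the N-cadherin gene CDH2 at 323 ± 40.1 CPM. CDH2 held 31.3 ± 4.89 times the footprints of CDH1, the epithelial cadherin, which stood at 10.4 ± 1.46. Of the basal keratins, KRT5 stood at 0.0734 CPM and KRT14 at 1.90 ± 1.52, with 9 counts in the library that kept it from detection. Among fibroblast products the collagens COL1A1 (40.1 ± 8.68 CPM) and COL3A1 (2.67 ± 0.234) and LUM (2.08 ± 0.674) were detected, while DCN at 0.0588 and COL1A2 at 0.351 were not. FN1 measured 1178 and 1202 CPM in the shRNA control and 1852 and 1934 in the inhibitor control. It did not overlap and was lower in the shRNA control (log2 difference -0.62 ± 0.07 SE, edgeR adjusted p = 0.000268).

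Oncofetal RNA-binding proteins were the clear part of the embryonic list, of which 7 of 13 were detected. IGF2BP1 measured 263, 264, 269 and 276 CPM, IGF2BP3 82.2 ± 4.12 and IGF2BP2 47.6 ± 0.216, the last one nearly identical in every control library. LIN28B, which blocks let-7 maturation, stood at 11.3 ± 3.86, HMGA2 at 19.7 ± 4.54 and SOX2 at 10.2 ± 0.897 CPM. Of the pluripotency factors, NANOG was detected at 2.18 ± 0.851 CPM, a row that is uncertain because pseudogene copies share its sequence, while POU5F1 at 0.0551 and LIN28A at 0.0328 CPM were not. PRAME, a cancer-testis antigen, was the 1 of 6 germ cell markers detected, at 27.3 and 26.0 CPM in the shRNA control and 12.6 and 14.3 in the inhibitor control.

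Of the markers of blood, vessel and liver, 9.09% of the leukocyte, 33.3% of the erythroid, 37.5% of the endothelial and 12.5% of the hepatocyte genes were detected, against 71.2% of all symbols, and some of these reached the levels of some kidney markers above. CD68, a lysosomal glycoprotein of macrophages, was the 1 detected of 11 leukocyte markers, with 41.5 and 41.9 CPM in the shRNA control and 13.4 and 16.8 in the inhibitor control. PTPRC, the defining leukocyte phosphatase, had a mean of 0.0436 CPM, CD3E 0.0142 and SPI1 0.146. Of 8 endothelial markers 3 were detected, led by EGFL7 at 19.02 ± 3.52 CPM, while CLDN5 had no count and CDH5 stood at 0.0948. Transferrin (TF), at 4.50 ± 1.09 CPM, was the detected 1 of 8 hepatocyte markers, and ALB stood at 0.0404. HBA1 and HBA2, which are nearly identical, were at 2.30 and 2.26 CPM. Of 11 muscle markers 9 were detected, but 3 of them are the actins described above, and MYOD1 stood at 0.0698 CPM. In this list the control mean of TAGLN, an actin-binding protein of smooth muscle, rested mostly on 1 library, with 1.89, 1.61, 8.75 and 45.7 CPM. Its treated libraries measured 37.7 and 34.3 CPM with the hairpin and 29.4 and 53.4 with the inhibitors.

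**Figure D4:**
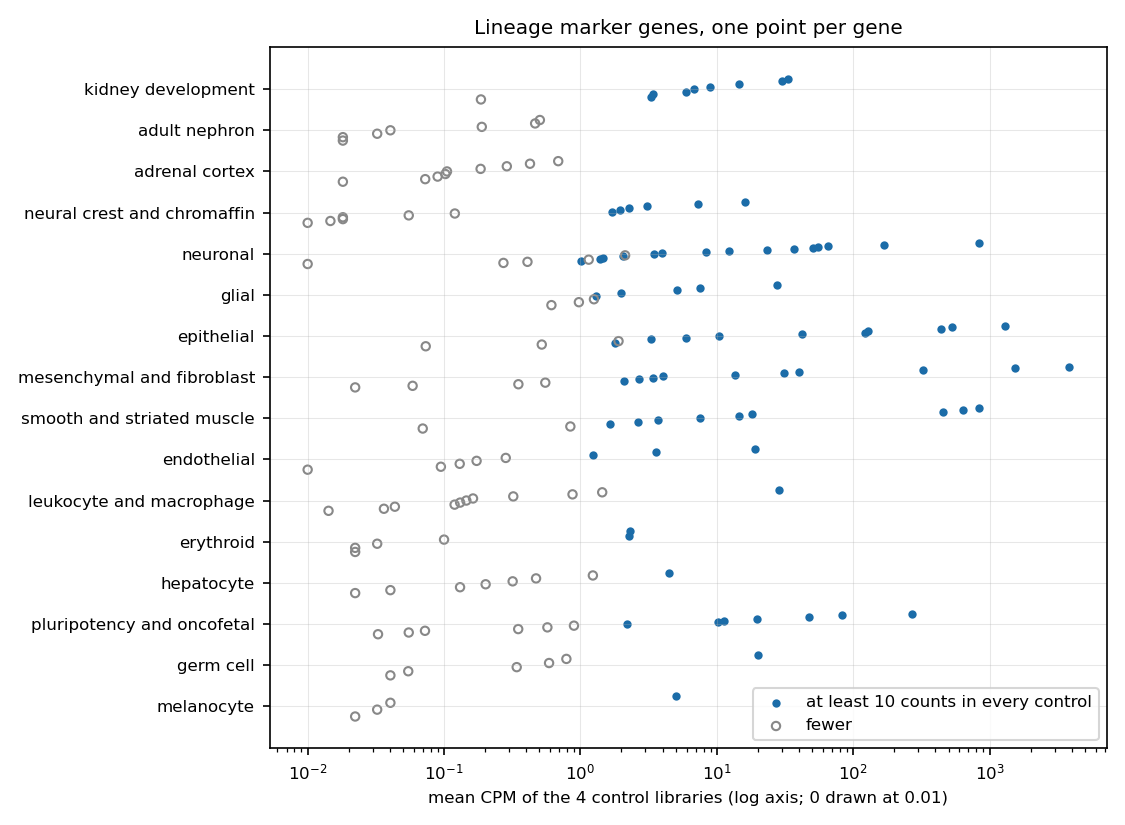
Mean CPM over the 4 control libraries (log axis, 0 drawn at 0.01) of the 159 lineage markers with a row, grouped by list, filled points for genes with at least 10 counts in every control. Kidney development reaches 33.3 CPM while the adult nephron list stays under 0.6, and the epithelial and mesenchymal lists both pass 1000.

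Subunits of protein complexes were followed across the control libraries in 47 complexes with 345 measured subunits or paralog sums. Proteins of a stable complex are needed in a fixed ratio, and in many complexes their synthesis is known to be matched to it. With no coding lengths, a subunit's share of its complex's footprints is not a stoichiometry, but its constancy across libraries can be measured because length cancels. The measure was the SD over the 4 control libraries of a subunit's log2 CPM minus the mean of its complex. Its median was 0.101, against 0.121 for log2 CPM of the same subunits and 0.125 for all 2051 genes of at least 100 CPM. Subtracting a complex's own mean lowers this SD by construction, most for pairs, so no test was made of the gap.

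Several assemblies kept their composition closely. Summed alpha and beta tubulins, which form the heterodimer 1 to 1, deviated by 0.016, and NACA and BTF3, the partners in the nascent-polypeptide complex at the ribosome exit, by 0.020. Both are pairs, in which this deviation is lowered most by construction. NACA over BTF3 measured 0.904 and 0.914 in the shRNA control and 0.936 and 0.962 in the inhibitor control. These ratios lay close together, though the kinds of control did not overlap. Among assemblies with 3 or more measured members the oligosaccharyltransferase, which attaches glycans to new proteins, was the tightest with a median of 0.035, and its RPN1 took 17.8% ± 0.318 and RPN2 43.9% ± 0.74 of the footprints. The COP9 signalosome had a median of 0.054. Single members of other complexes were steady in level, which does not show that the composition was kept. MCM7 of the replicative helicase measured 938, 942, 947 and 930.0 CPM, and SDHA, the flavoprotein of complex II, 427, 427, 433 and 424. In complex II SDHB was higher in the shRNA control (log2 difference 0.29 ± 0.06 SE, edgeR adjusted p = 0.00715). SDHD was lower (-0.31 ± 0.10 SE, edgeR adjusted p = 0.0403), a call lost with DESeq2 (adjusted p = 0.0727). In the helicase MCM2 was higher (0.21 ± 0.06 SE, edgeR adjusted p = 0.0248). That call was lost with DESeq2 (adjusted p = 0.0554) and in edgeR without TMM scaling (adjusted p = 0.087).

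In other complexes single subunits differed between the kinds of control. The 20S proteasome core summed to 4873 ± 42.2 CPM. Within it PSMA4 measured 665 and 677 CPM in the shRNA control and 495 and 453 in the inhibitor control, while PSMB7 measured 185 and 194 against 299 and 305. PSMA4 was higher (0.56 ± 0.07 SE on the log2 scale) and PSMB7 lower (-0.62 ± 0.07), with edgeR adjusted p of 0.000466 and 0.000191. In the chaperonin TRiC, which folds actin and tubulin, CCT8 measured 1035, 1030.1, 738 and 801 and CCT3 824, 829, 1107 and 1128, in opposite order, within a sum of 7177 ± 197 CPM. In condensin SMC4 was higher in the shRNA control (log2 difference 0.66 ± 0.08 SE) while its ring partner SMC2 differed by -0.01, and the ratio of SMC4 to SMC2 was 1.62 and 1.58 in the shRNA control and 0.974 and 1.04 in the inhibitor control, and the treated libraries lay near their own controls, at 1.63 and 1.66 with the hairpin and 1.08 and 1.07 with the inhibitors. SDHB, PSMB7, CCT3, CCT8, SMC4 and the members and pairs of the next paragraph were singled out after their values were seen, as were the undetected markers given by name above.

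The least steady member of a nuclear-encoded complex was RPL41, the smallest protein of the large subunit. It measured 355 and 372 CPM in the shRNA control and 1057 and 1009.9 in the inhibitor control, far apart (log2 difference -1.45 ± 0.07 SE, edgeR adjusted p = 2.63e-06). Its libraries with the hairpin, at 438 and 449 CPM, were near their own control. Its deviation of 0.795 was followed by EXOSC6 of the RNA exosome with 0.533 and POLR2I of RNA polymerase II with 0.494. Ku, which binds broken DNA ends, had XRCC6 over XRCC5 at 1.36, 1.37, 1.48 and 1.59, SUPT16H over SSRP1 of the histone chaperone FACT ran at 1.59, 1.53, 1.42 and 1.254, and the keratin pair KRT8 over KRT18 at 2.72, 2.74, 2.08 and 2.32. In each of these pairs the kinds of control did not overlap. By the same criterion 66.6% of single genes did not overlap, so this is not particular to these pairs. Ku deviated by 0.053 and FACT by 0.075. Subtracting the mean lowers this measure most in pairs, so these values cannot be set against those of larger complexes. For KRT8 over KRT18 the libraries with the hairpin, at 2.29 and 2.36, lay below their own control.

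**Figure D5:**
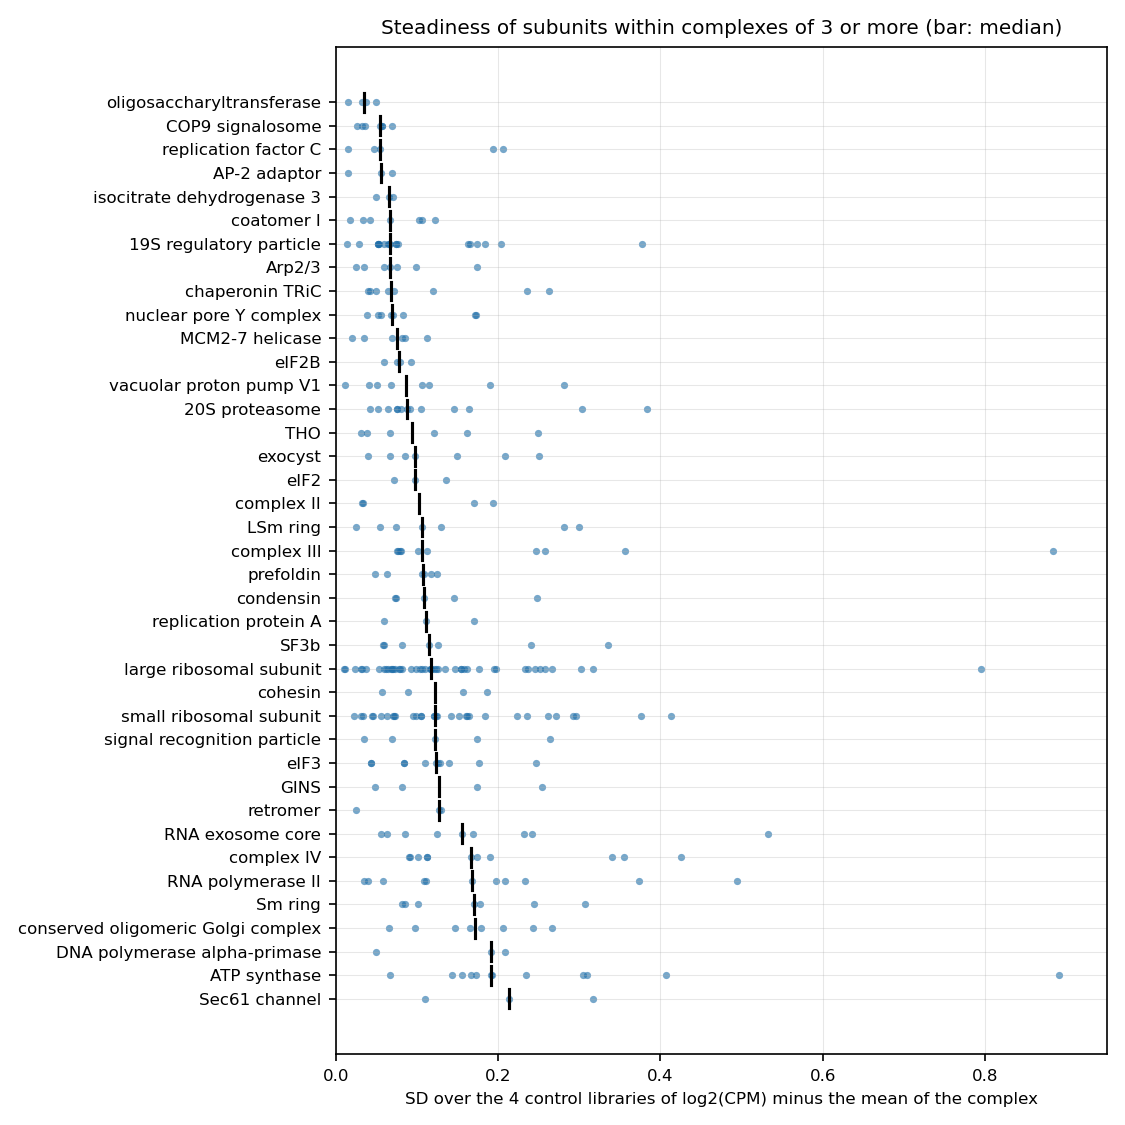
SD over the 4 control libraries of each subunit's log2 CPM minus the mean of its complex (horizontal axis), 1 point per subunit, for complexes of 3 or more, with a bar at the median. Most subunits lie below 0.2, and RPL41 at 0.795, MT-CYB at 0.883 and MT-ATP8 at 0.890 lie far to the right.

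How far the 2 kinds of control can be read as 1 baseline was put to a test across genes. Of 13310 tested genes, 1797 were higher and 1802 lower in the shRNA control (27.0% called, 13.5% in each direction; edgeR's quasi-likelihood test over all 8 libraries, adjusted p under 0.05). The called genes differed by a median of 1.40-fold, and 617 differed at least 2-fold. Dropping shRNA control replicate 1 left 540 higher and 539 lower, and dropping its replicate 2 left 625 and 624. Without TMM scaling, which moved the median of all genes from -0.003 to -0.057 on the log2 scale, the split was 1283 higher and 2181 lower. Of the 220 genes chosen for naming, 61 were higher and 29 lower, and of the 20 highest rows 5 were higher and 1 lower.

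Read against this background, 27.0% of all genes, the called members were 24 of 80 ribosomal proteins (6 higher, 18 lower) and 27.4% of 73 translation factors. Of the mitochondrially encoded genes 0 were higher and 12 of 13 lower in the shRNA control, with a median log2 difference of -0.80 against -0.003 for all genes. The exception was MT-CO1 (-0.22 ± 0.08 SE, edgeR adjusted p = 0.0789), and 13 of 13 were lower with the replicate block, with a minimum mean of 50 counts or without inhibitor control replicate 2. Without either shRNA control library, or without inhibitor control replicate 1, 9 of the 13 were lower. Of 58 extracellular matrix genes 7 were higher and 31 lower, with a median of -0.42, but 1 and 14, or 1 and 12, without shRNA control replicate 1 or 2. Mitosis and chromosome cohesion had 19 higher and 2 lower of 43 (median 0.22), which became 11 and 1, or 12 and 1, without the same libraries. Of 46 genes of ER folding, translocation and glycosylation 19 were higher and 4 lower (median 0.18), which became 4 and 1, or 5 and 0, without the same libraries, and 9 and 7 without TMM scaling. None of 17 tubulins was called by edgeR, 0 also by DESeq2, and their median was -0.10. Other settings called up to 3 of them lower, the replicate block and the fit without inhibitor control replicate 1 among these, and without inhibitor control replicate 2 it was 1 higher.

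Among the 220 genes chosen for naming by rule, those of smallest p, higher in the shRNA control, were CD68, SLC38A2, PRAME, H2BC12, PSMA4 and HSPA1B. SLC38A2 is an amino acid carrier. SLC38A2 measured 611 and 609 CPM in the shRNA control and 372 and 298 in the inhibitor control (log2 difference 0.92 ± 0.10 SE, edgeR adjusted p = 0.000229). Those lower were MT-CYB, MT-ND5, ACTA2, MT-ATP8, FN1 and MT-CO2. All 12 kept their call with DESeq2 and with the other settings that used every control library. They were picked for a small p in a fit of these same libraries, so this adds no separate support. RPL41, PSMB7, SMC4 and POLR2I, named above after their values were seen, stood outside this ranking. RPL41 had a smaller edgeR adjusted p (2.63e-06) than MT-CYB (3.55e-05). H2BC12, HSPA1B and ACTA2 are uncertain as single rows, as said above. The share of the set-aside rows, 6.85% and 7.07% in the shRNA control and 10.6% and 11.5% in the inhibitor control, differed in the same way as the mitochondrial genes, and its part in these differences was not tested.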

How the data were processed

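Ribosome footprints were read from 293T cells in 8 libraries. The authors deposited raw counts, the number of mapped reads for each gene and transcript, and a feature without reads was taken as 0. The tools named are cutadapt and Bowtie and the build is GRCh38, per the submitters' processing notes. Tool versions, the counting step, its use of strand and the handling of multiply matching reads are not stated in the sources read for this text. The 18037 features were summed to 17179 symbols, and ZNF354B, ST8SIA1 and 12 MTRNR2L symbols were set aside. CPM was taken over the remaining count without further scaling. Of the symbols left, 16405 matched RefSeq on GRCh38.p14, which gave coordinates and promoter windows (250 bases before and 50 after the start).

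The kinds of control were compared with edgeR 4.0.16 in R 4.3.3: filterByExpr (minimum count 10, minimum total 15), TMM, and a quasi-likelihood model of the 4 groups over 8 libraries, with Benjamini-Hochberg adjustment over 13310 genes. The model was tested on simulated counts. DESeq2 1.42.0 and other settings were alternatives. Tables were made with Python 3.11.15 and pandas 2.3.3. Classes, lineage lists, complexes and the rule for names were chosen with earlier results of these data known. Named genes were the 20 of highest mean CPM, the first 3 of each class, up to 4 detected markers per lineage, and the 6 of smallest p in each direction among these. The parts of the rule that needed coding lengths (density within complexes and over all genes) could not be applied, and the members of highest and lowest CPM in each complex took their place.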

Additional observations from a re-analysis of the deposited data

Results flagged for a closer look

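The rows set aside from every share (ZNF354B, ST8SIA1 and the MTRNR2L genes) took 12.9% of all counts in replicate 2 of the miRNA inhibitor libraries, more than in any control library, where they took 6.85% to 11.5%. These rows were kept out of the class shares and of the test between the kinds of control.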

How the results depend on the processing

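Keeping the set-aside rows in the total lowered the ribosomal protein share from 7.26% to 6.60%, and averaging the treated libraries, an alternative chosen after seeing the data, gave 7.92%. With pooled counts, the median, TMM sizes, the highest feature per symbol or 1 library left out it moved by less than the SD. Asking for 50 counts in each control left 45 of the 79 detected lineage genes. Genes called lower in the shRNA control were 1149 with DESeq2. Leaving out 1 library gave 540 to 1595 genes higher and 539 to 1619 lower. With the replicate block the counts were 2486 higher and 2332 lower. Deviations of same-numbered libraries correlated at r = -0.00429 between the control kinds (9063 genes), at 0.0205 and 0.0247 for the shRNA control with the treated groups, at 0.296 and 0.327 for shNBD1 with the inhibitor groups and at 0.675 between the inhibitor groups. Since not every pair passed 0.1, the numbers were not taken to pair the samples. Of the 90 named genes called, 56 and 50 lost the call without shRNA control replicate 1 or 2 and at most 17 under any other setting; none of those tested changed sign, and KDR was not tested with a filter of 50 counts. Leaving out the copy correction of complexes was not run, because no coding length was used. Depth limits the low lineage genes: 3 counts in the shallowest control are 0.268 CPM, a floor that covers counting error only.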
